A study of Rattus norvegicus with 9 samples.

Results

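The interleukin-1 (IL-1), tumour necrosis factor (TNF) and Toll-like receptor axis was followed here through 10 genes, picked by gene symbol from the 18964 genes of a table of gastric lymphatic vessel transcripts. These are the ligands Il1a, Il1b and Tnf, the antagonist Il1rn, the receptors Il1r1, Tlr2 and Tlr4, the adaptor Myd88, the NF-kB subunit Nfkb1 and its inhibitor Nfkbia. All 10 were in the table, and 8 of them passed the filter on low counts and were tested. Il1a and Tnf did not pass it.

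Messenger RNA was sequenced from vessels of male, wild-type Sprague-Dawley rats in 9 libraries, 3 per group, all after a 12 h fast. BXD rats spent 4 h in water 15 cm deep at 22 °C, a stress that ulcerates the stomach, and 30 min later were given Banxia Xiexin decoction, a Chinese herbal formula, by gavage at 10 ml/kg. Model rats had the same stress and a gavage without the decoction, and control rats had the gavage without the stress. The study kept 6 rats per group, and nothing ties a library to a rat, so the p-values measure the spread between libraries, which may be in part technical. The series title names lymphatic pumping, smooth muscle contraction and energy metabolism as its subject, and the comparisons that bear on it are model against control and BXD against model.

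IL-1 and Toll-like receptors share an intracellular signalling domain through which they recruit the adaptor protein MyD88, then kinases of the IRAK family and the ubiquitin ligase TRAF6. TNF receptors use another set of adaptors, and both routes converge on the IkB kinase complex, which marks the inhibitor IkB-alpha, the product of Nfkbia, for destruction and so frees NF-kB to enter the nucleus. Nfkbia is itself a target of NF-kB, as are many cytokines and chemokines. In collecting lymphatics, inflammatory cytokines are known to alter the contractions that drive lymph.

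Nfkbia is the textbook case of a promoter with NF-kB sites, so the upstream sequence of genes of the axis was read beside the expression values. All 10 genes had an entry in the RefSeq promoter table (build GRCr8), and the 250 bases before the annotated start were searched on both strands for the kB consensus. It was found in 3 of the 10, against 6.33% of 33469 promoter windows of the same length. The 4 sequences below are those of the 3 genes with a match and of Myd88, the gene of the axis with the smallest p in model against control, which has no match in this window. Each is written 5′ to 3′ on the strand of its gene, with bases that match the consensus in capitals. The windows on GRCr8 are chr6:78597073-78597322 on the minus strand for Nfkbia, chr2:171504558-171504807 on the minus strand for Tlr2, chr9:50034133-50034382 on the plus strand for Il1r1 and chr8:127956231-127956480 on the minus strand for Myd88.
Nfkbia: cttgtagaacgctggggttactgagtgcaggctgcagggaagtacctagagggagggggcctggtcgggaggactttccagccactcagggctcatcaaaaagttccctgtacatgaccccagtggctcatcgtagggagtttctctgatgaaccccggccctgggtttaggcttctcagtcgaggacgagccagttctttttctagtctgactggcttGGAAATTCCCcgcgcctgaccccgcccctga
Tlr2: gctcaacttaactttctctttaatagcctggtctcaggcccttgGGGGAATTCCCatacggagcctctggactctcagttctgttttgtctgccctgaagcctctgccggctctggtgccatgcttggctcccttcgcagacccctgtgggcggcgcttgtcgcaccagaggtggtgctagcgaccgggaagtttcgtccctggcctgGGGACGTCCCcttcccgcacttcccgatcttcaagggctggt
Il1r1: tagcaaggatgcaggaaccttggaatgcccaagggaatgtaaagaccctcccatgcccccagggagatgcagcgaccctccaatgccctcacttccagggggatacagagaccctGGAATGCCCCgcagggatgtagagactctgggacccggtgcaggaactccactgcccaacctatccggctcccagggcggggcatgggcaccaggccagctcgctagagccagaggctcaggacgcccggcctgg
Myd88: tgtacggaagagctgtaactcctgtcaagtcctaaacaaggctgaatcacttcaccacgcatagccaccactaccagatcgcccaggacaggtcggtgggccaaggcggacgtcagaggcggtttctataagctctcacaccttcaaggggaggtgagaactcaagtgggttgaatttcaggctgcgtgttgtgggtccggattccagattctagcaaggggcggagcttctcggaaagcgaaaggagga
In Nfkbia the match GGAAATTCCC lies 31 to 22 bases before the start. In Tlr2 the capitals begin with GGGGAATTCC and GGGAATTCCC, which overlap in all but 1 base between 206 and 196 bases before the start, and end with GGGACGTCCC at 42 to 33 bases. In Il1r1 the match is GGAATGCCCC at 135 to 126 bases. A match describes the letters and is not a bound site, and the absence of one says nothing about sequence outside the window.

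Of the 8 tested genes, 3 were called higher in model than in control vessels and 0 lower, where a call is an adjusted p under 0.05 over all 14643 genes tested by edgeR's quasi-likelihood test with Benjamini-Hochberg adjustment. That share, 37.5%, lies near the 42.2% of all tested genes called in the same comparison (21.6% higher and 20.6% lower). The same 3 genes, Il1r1, Myd88 and Nfkbia, were called higher in BXD than in control vessels, against 30.3% of all genes (16.1% higher and 14.3% lower). BXD and model vessels differed in 0 of the 8 by this test, and in 9 of all genes, 0.0615% (0.0546% higher and 0.00683% lower). Between BXD and model, 3 of the 8 had an unadjusted p under 0.05, all higher in BXD, beside 20.9% of all genes (11.0% higher and 9.85% lower). DESeq2 called 1 of the 8 in that comparison, beside 7.71% of all genes, and limma-voom 0, beside 0.0205%. With 1 library left out, 1 of the 8 was called in model against control without control replicate 1 (31.8% of all genes) or 2 (29.1%). Without model replicate 2, 5 were called in BXD against control, beside 32% of all genes. The split in model against control also depended on the scaling. With library size alone the same edgeR test kept the Myd88 call. It lost those of Il1r1 (adjusted p = 0.0627) and Nfkbia (adjusted p = 0.145) and called Nfkb1 lower (-0.47, adjusted p = 0.0154). The median log2 fold change of the 8 was 0.43 for BXD against model, 0.58 for BXD against control and 0.29 for model against control, beside -0.01, -0.02 and -0.01 over all genes tested. The 3 libraries of a group lay wholly to 1 side of those of the other, in CPM, for 1 of the 8 in BXD against model (22.4% of all genes), 5 in BXD against control (48.6%) and 6 in model against control (58.3%).

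**Figure D1:**
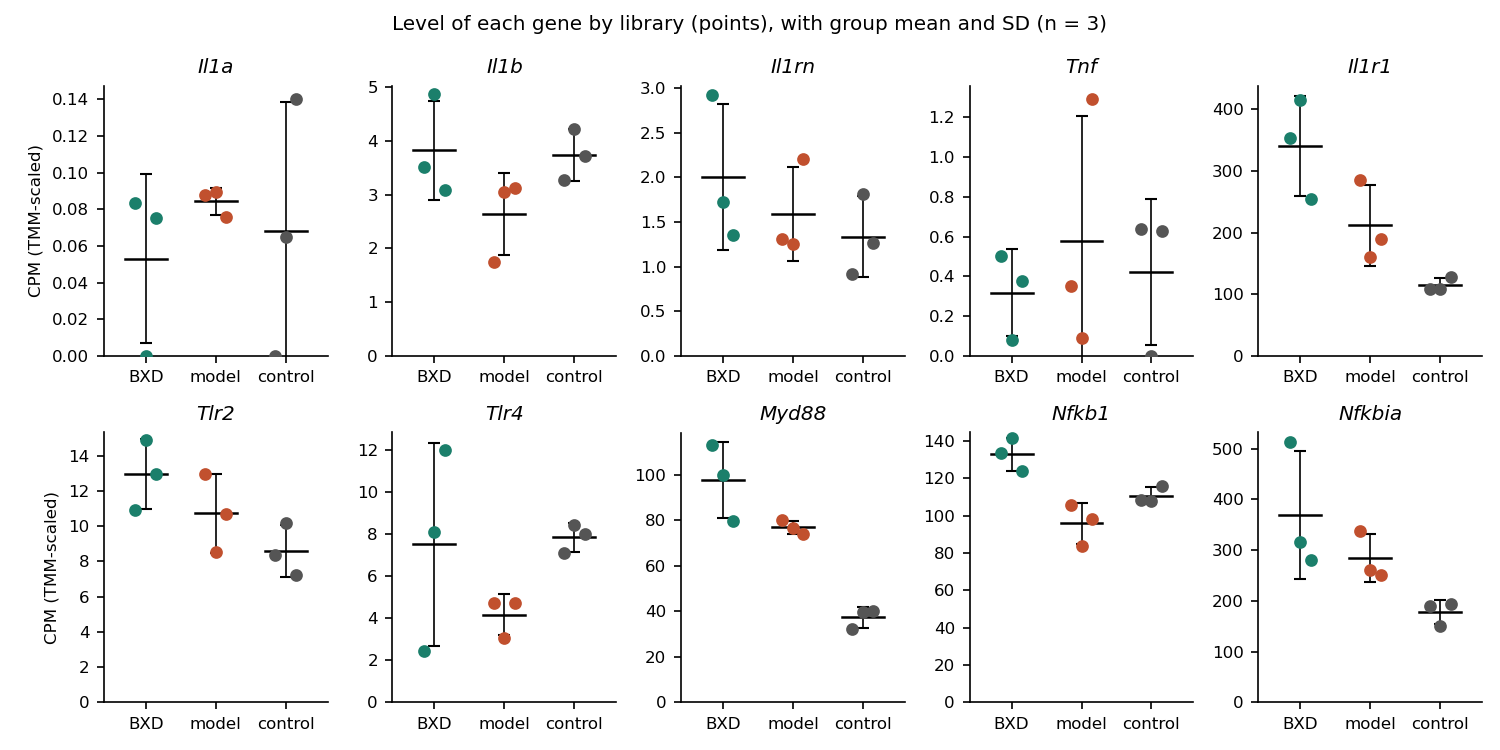
Level of the 10 genes in each library, as CPM (read counts scaled to library size and, by trimmed means of M-values, to composition), with every vertical axis starting at 0. Points are libraries, the horizontal line and bar are the group mean and SD (n = 3), and for Il1r1, Myd88 and Nfkbia every BXD and model library lies above every control library.

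Libraries held 12313823 to 13455701 counts, and a floor of 3 counts was 0.195 to 0.269 CPM. In a principal component analysis of log2 CPM, the leading component held 41.8% of the variance, and on it control libraries lay between -64.4 and -57.3 and all others between 14.8 and 52.7. On the second, with 20.03%, BXD replicates 1 and 3 lay at -55.3 and -42.7 and BXD replicate 2 at 4.98, so the BXD libraries are the most scattered on this component. Vessels are bulk tissue, so fewer cells of a type and less RNA per cell cannot be told apart. Defining genes of lymphatic endothelium were present, with a summed level of 823 to 1035 TPM (levels scaled to transcript length and depth) in BXD, 455 to 903 TPM in model and 923 to 1027 TPM in control vessels, and edgeR called 2 of 12 higher in BXD and 1 higher and 4 lower in model against control. Fat cell markers summed to 17041 to 24709 TPM in BXD, 22890 to 39844 TPM in model and 13408 to 16345 TPM in control vessels, with 8 of 12 called higher in BXD and 11 of 12 in model against control. Smooth muscle markers summed to 7248 to 10081 TPM in BXD, 1952 to 3939 TPM in model and 6068 to 8788 TPM in control vessels, with 3 of 12 called higher in BXD (0 with library size alone) and 8 of 12 called lower in model against control. Fibroblast markers summed to 11463 to 13595 TPM in BXD, 7401 to 11199.6 TPM in model and 14957 to 18948 TPM in control vessels. These TPM sums are not scaled for composition: edgeR called 0 of the 10 in BXD against control, with 1 at an unadjusted p under 0.05 and a median log2 fold change of 0.00, DESeq2 called 1 higher and limma-voom 0, and with library size alone 2 were called lower. In model against control 2 of the 10 were called lower (4 with library size alone). Markers of blood endothelium summed to 1513 to 2169.9 TPM in BXD, 1077 to 1644 TPM in model and 1888 to 2217 TPM in control vessels, with 1 of 12 called higher and 2 lower in BXD and 2 higher and 2 lower in model against control. Mast cell markers summed to 40.8 to 68.2 TPM in BXD, 56.8 to 116 TPM in model and 78.8 to 108 TPM in control vessels, with 1 of 8 called lower in BXD and 1 higher in model. Lymphocyte markers summed to 78.4 to 132 TPM in BXD, 90.6 to 312 TPM in model and 96.6 to 184 TPM in control vessels, with 2 of 11 called lower in BXD and 0 called in model by edgeR, DESeq2 or limma-voom (0 at an unadjusted p under 0.05 by edgeR). Of all genes, 42.2% were called in model and 30.3% in BXD against control. Scaling by library size alone gave, in model, 0 higher and 5 lower for blood endothelium and 1 higher and 5 lower for lymphatic endothelium. In BXD it gave 1 higher and 3 lower, and 1 higher and 1 lower. Mast cell markers then had 1 lower in model and 2 lower in BXD. Of fat cell markers 6 were called higher in BXD and 11 in model, smooth muscle had 10 lower in model and lymphocytes 3 lower in BXD. The part of these cell types in the results below was not tested.

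The ligands were scarce. The authors' table places on Rnor_6.0 Il1a (gene 24493) at chr3:121824712-121836122 on the minus strand, Il1b (gene 24494) at chr3:121876256-121882637 on the minus strand, Tnf (gene 24835) at chr20:5189226-5192000 on the plus strand and the antagonist Il1rn (gene 60582) at chr3:1449778-1468624 on the plus strand. Il1a, which encodes IL-1 alpha, had 1, 0 and 1 counts in BXD, 1, 1 and 1 in model and 0, 1 and 2 in control libraries, sums of 2, 3 and 3 counts, so no difference was detectable at this depth. Tnf had 6, 1 and 5 counts in BXD, 4, 1 and 17 in model and 9, 0 and 9 in control libraries. The 17 counts of model replicate 3 are the most in any library, and the ranges of all groups overlap. Fitted without the filter, Tnf differed by 0.48 on the log2 scale between model and control (adjusted p = 0.774 over 18926 genes by the same edgeR test).

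Il1b encodes IL-1 beta, which is made as a precursor and cut by caspase-1. It had 3.51, 4.86 and 3.09 CPM in BXD vessels, 1.75, 3.05 and 3.11 CPM in model vessels and 3.27, 4.22 and 3.72 CPM in control vessels. Model lies below control without overlap, and BXD spans the control range. The log2 fold change was -0.50 (SE 0.30, adjusted p = 0.201) for model against control, 0.53 (SE 0.30, adjusted p = 0.340) for BXD against model and 0.03 (SE 0.29, adjusted p = 0.943) for BXD against control by edgeR's quasi-likelihood test, so Il1b was not called in any comparison. With FPKM + 1 it was called lower in model against control, at -0.59 (adjusted p = 0.0419). Counts per library ran from 41 to 62 in BXD, 20 to 41 in model and 46 to 65 in control libraries.

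Il1rn encodes the receptor antagonist that occupies the IL-1 receptor without signalling. It had 2.92, 1.73 and 1.36 CPM in BXD vessels, 1.31, 1.25 and 2.2 CPM in model vessels and 0.923, 1.82 and 1.26 CPM in control vessels. BXD replicate 1 is the highest library and the groups overlap. By the same test BXD differed from control by 0.57 (SE 0.41, adjusted p = 0.319) and model from control by 0.25 (SE 0.42, adjusted p = 0.646) on the log2 scale. Within a library, the ratio of Il1rn to Il1b in TPM was 0.528, 0.221 and 0.280 in BXD, 0.473, 0.263 and 0.446 in model and 0.175, 0.274 and 0.215 in control vessels. The mean log2 ratio was -1.65 ± 0.65 in BXD, -1.39 ± 0.47 in model and -2.2 ± 0.32 in control vessels (SD, n = 3 each). Model exceeded control by 0.81 with an exact two-sided permutation p of 0.2, and BXD exceeded control by 0.55 with the same p, where 3 libraries against 3 cannot give a p below 0.1. Adjusted over 6 ratio tests, the 3 of Il1rn to Il1b and the 3 of the Il1r2 to Il1r1 ratio described below, both gave 0.3.

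Of the IL-1 family ligands and antagonists, 5 of 11 listed genes were tested, and 3 of the 5 fell in model against control while 0 rose, beside 42.2% of all genes called. The count was 1 without model replicate 2. The authors' counts place Il18, an inflammasome-dependent cytokine that induces interferon gamma, at 6.18, 3.37 and 2.72 CPM in BXD vessels, 2.37, 2.33 and 2.28 CPM in model vessels and 5.18, 11.4 and 6.66 CPM in control vessels. All model libraries lie below all BXD and control libraries. Il18 fell in model against control by 1.73 on the log2 scale (SE 0.38, adjusted p = 0.00743), and BXD against control was -0.92 (adjusted p = 0.0866) by edgeR's test, called with library size alone (-1.15, adjusted p = 0.0387) and FPKM + 1 (-1.05, adjusted p = 0.0289). Il33, an alarmin kept in the nuclei of endothelial and stromal cells, fell in model by 0.49 (adjusted p = 0.0173) and Il18bp, the decoy that binds IL-18, by 0.50 (adjusted p = 0.0255). The Il33 call was lost without control replicate 1 or model replicate 2 (adjusted p up to 0.0581), and the Il18bp call without any 1 of 4 libraries, control replicates 2 and 3 and model replicates 2 and 3 (up to 0.079). The median log2 fold change of the 5 was 0.00 in BXD against control and -0.50 in model against control, with Il33 at -0.06 (adjusted p = 0.769) and Il18bp at 0.00 (adjusted p = 0.989) in BXD against control.

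The receptor genes were placed by the same table on Rnor_6.0, with Il1r1 (gene 25663) at chr9:46962291-47038139 on the plus strand, Tlr2 (gene 310553) at chr2:182840171-182846061 on the minus strand and Tlr4 (gene 29260) at chr5:82587424-82601056 on the plus strand, and the table lists 12 transcripts for Il1r1. Il1r1, the signalling receptor for IL-1, had 353, 415 and 254 CPM in BXD vessels, 285, 159.9 and 190.3 CPM in model vessels and 108, 108 and 129 CPM in control vessels. Every BXD and model library lies above every control library, and model replicate 1 lies within the BXD range. Il1r1 rose 2.96-fold in BXD against control (log2 fold change 1.57, SE 0.24, adjusted p = 0.00216) and 1.84-fold in model against control (log2 fold change 0.88, SE 0.24, adjusted p = 0.0163) by edgeR's quasi-likelihood test. BXD against model was 0.69 (SE 0.23, adjusted p = 0.157), with an unadjusted p of 0.0161. The call in model against control was lost without control replicate 1 or 2 (adjusted p up to 0.0583), and with library size alone as the scaling it was 0.61 (adjusted p = 0.0627), and with FPKM + 1 it was 0.56 (adjusted p = 0.0819). In the deposited TPM, which are not scaled for composition, the model range of 37.0 to 72.9 overlaps the control range of 35.8 to 42.7.

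Il1r2 is the decoy receptor, which binds IL-1 and does not signal, and it was chosen from the pathway list by its p-value. It had 10.6, 8.71 and 6.72 CPM in BXD vessels, 4.64, 5.73 and 3.95 CPM in model vessels and 0.781, 0.844 and 0.421 CPM in control vessels. Control libraries are under 1 CPM and all others above 3.9. It rose 12.5-fold in BXD (log2 fold change 3.65, SE 0.33, adjusted p = 0.000515) and 6.90-fold in model (log2 fold change 2.79, SE 0.32, adjusted p = 0.000599) against control by edgeR's test. Over 9 scalings, tools and designs the log2 fold change ran from 2.36 to 3.68 in BXD and from 1.58 to 2.82 in model, with both calls kept. Set against Il1r1 within each library, the linear TPM ratio of Il1r2 to Il1r1 was 0.126, 0.0877 and 0.110 in BXD, 0.0705, 0.147 and 0.0845 in model and 0.0302, 0.0299 and 0.0127 in control vessels. Il1r1 exceeded Il1r2 in TPM in all 9 libraries, and the ratio was higher in all 6 BXD and model libraries than in any control library. The mean log2 ratio was -3.23 ± 0.26 in BXD, -3.38 ± 0.55 in model and -5.47 ± 0.72 in control vessels (SD, n = 3 each). BXD exceeded control by 2.24 and model exceeded control by 2.09. Their p-values entered the adjustment above but are not read as results, since Il1r2 was picked for its p-value in the comparisons with control. BXD exceeded model by 0.16.

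**Figure D2:**
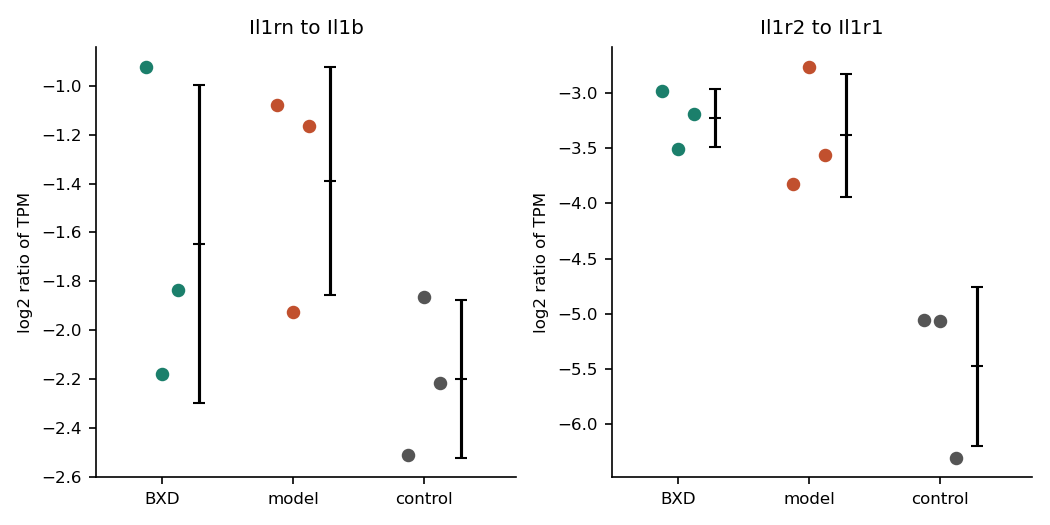
Log2 ratio of TPM within each library for Il1rn to Il1b (left) and Il1r2 to Il1r1 (right), with points for libraries and bars for the group mean and SD (n = 3). The Il1r2 to Il1r1 ratio is above the control libraries in all 6 BXD and model libraries, whereas the Il1rn to Il1b ratios overlap between groups.

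Il1r2 is also a marker of neutrophils. The 11 neutrophil markers, Il1r2 among them, summed to 154, 170 and 272 TPM at the lowest, median and highest BXD library, 154, 208 and 219 TPM in model and 83.1, 85.0 and 122 TPM in control vessels, without overlap with control. Of 8 tested, 4 were called higher in BXD and 4 in model against control, Il1r2 among them, beside 16.1% and 21.6% of all genes. With library size alone, 3 were called higher in each. Fpr1 was at 0 in all BXD libraries. The summed levels of macrophage and dendritic cell markers overlapped between groups, at 1581 to 2174 TPM in BXD, 1766 to 2659 TPM in model and 1665 to 2981 TPM in control vessels. With composition scaling, 5 of the 14 were called higher and 0 lower in model against control (median log2 fold change 0.33), and 1 higher and 1 lower in BXD against control. These are 35.7% beside 42.2% of all genes for model, and 14.3% beside 30.3% for BXD. With library size alone the model split was 1 higher and 1 lower. Their part in the Il1r2 and Il1r1 values was not tested.

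Of 8 IL-1 family receptors, 2 rose and 1 fell in each of the comparisons with control, 37.5% beside 30.3% of all genes for BXD and 42.2% for model. Scaled by library size alone, 1 rose and 2 fell in model. The gene that fell was Sigirr, an inhibitory member of the family, at 10.2, 10.8 and 10.3 CPM in BXD vessels, 8.58, 8.15 and 10.7 CPM in model vessels and 19.6, 20.8 and 25.3 CPM in control vessels. It fell in BXD by 1.07 (adjusted p = 0.00188) and in model by 1.26 (adjusted p = 0.000753) on the log2 scale. The accessory chain Il1rap, which Il1r1 needs to signal, had 7.43, 7.22 and 6.49 CPM in BXD vessels, 8.23, 5.47 and 5.85 CPM in model vessels and 6.11, 7.79 and 7.01 CPM in control vessels, and its log2 fold change against control was 0.02 (SE 0.21, adjusted p = 0.963) in BXD and -0.10 (SE 0.21, adjusted p = 0.725) in model by edgeR's test.

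Tlr2, the receptor for bacterial lipoproteins, had 10.9, 14.9 and 13 CPM in BXD vessels, 13, 8.51 and 10.7 CPM in model vessels and 8.38, 10.2 and 7.22 CPM in control vessels. BXD libraries all lie above control libraries, and the model range overlaps both. In the deposited TPM the BXD range of 5.98 to 8.20 overlaps the control range of 4.58 to 6.13. The log2 fold change was 0.59 (SE 0.21, adjusted p = 0.0599) for BXD against control and 0.32 (SE 0.21, adjusted p = 0.247) for model against control by edgeR's test. BXD against control therefore missed the threshold, while DESeq2 on the same counts gave 0.60 (adjusted p = 0.0314) and the authors' deposited table a q-value of 0.0478.

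Tlr4, the lipopolysaccharide receptor, had 2.42, 8.08 and 12 CPM in BXD vessels, 4.73, 3.05 and 4.71 CPM in model vessels and 7.10, 8.44 and 7.99 CPM in control vessels. Every model library lies below every control library, and BXD ranges from below the lowest model library to above the highest control library. Model against control was -0.91 (SE 0.47, adjusted p = 0.145) and BXD against control -0.06 (SE 0.46, adjusted p = 0.932). BXD against model was 0.85 (SE 0.47, adjusted p = 0.334). BXD replicate 1, with 29 counts beside 103 and 159 in the other BXD libraries, sets much of this: without it, model against control was -0.91 with adjusted p = 0.0152, BXD against control 0.36 (adjusted p = 0.312) and BXD against model 1.27 (adjusted p = 0.0583), all by edgeR's test. A fit to model and control libraries alone also called Tlr4 lower in model (-0.93, adjusted p = 0.0145), and the authors' deposited table gives -0.89 with a q-value of 0.0052.

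Among 19 Toll-like receptors and coreceptors, 2 rose and 6 fell in BXD against control, and 2 rose and 5 fell in model against control. These shares, 42.1% and 36.8%, lie beside 30.3% of all genes for BXD and 42.2% for model. With library size alone 1 rose and 8 fell in BXD, and 1 rose and 9 fell in model. Without control replicate 2, 1 rose and 3 fell in each. In BXD 1 rose and 4 fell without control replicate 3 or BXD replicate 2 or 3, and in model 2 rose and 3 fell without control replicate 3 or model replicate 2. Cd14, which hands lipopolysaccharide to Tlr4, had 64.5, 46.9 and 49.4 CPM in BXD vessels, 61.3, 54.8 and 50.4 CPM in model vessels and 21.5, 24 and 26.8 CPM in control vessels. It rose 2.22-fold in BXD (adjusted p = 0.00126) and 2.30-fold in model vessels (adjusted p = 0.000740) against control. Ly96, the other partner of Tlr4, had a log2 fold change against control of -0.20 (adjusted p = 0.647) in BXD and -0.27 (adjusted p = 0.487) in model. Tlr5, the flagellin receptor, had 2.76, 1.73 and 2.72 CPM in BXD vessels, 2.63, 2.69 and 5.54 CPM in model vessels and 12.6, 11.4 and 11.8 CPM in control vessels, and fell in BXD by 2.31 (adjusted p = 0.00162) and in model by 1.71 (adjusted p = 0.00347) on the log2 scale. Tlr11, a profilin receptor in mice, had 0.167, 0.471 and 0.528 CPM in BXD vessels, 0, 0.269 and 0.0760 CPM in model vessels and 1.35, 2.40 and 1.33 CPM in control vessels, close to the floor of 3 counts in stressed vessels. Tlr3, the double-stranded RNA receptor, likewise named with its values known, fell by 0.57 in BXD (adjusted p = 0.0204) and by 0.60 in model vessels (adjusted p = 0.0122), the BXD call being lost without control replicate 2, control replicate 3 or BXD replicate 3 (adjusted p up to 0.0825). All folds here come from edgeR's test.

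Myd88 is the adaptor shared by the IL-1 receptor and most Toll-like receptors, and the table places Myd88 (gene 301059) at chr8:128022512-128027462 on the minus strand. It had 113, 100.1 and 79.8 CPM in BXD vessels, 80.1, 76.4 and 74.2 CPM in model vessels and 32.1, 39.9 and 40.0 CPM in control vessels. The groups do not overlap with control, and BXD overlaps model through BXD replicate 3. Myd88 rose 2.61-fold in BXD against control (log2 fold change 1.39, SE 0.14, adjusted p = 0.000692) and 2.06-fold in model against control (log2 fold change 1.04, SE 0.14, adjusted p = 0.00108) by edgeR's test. Both calls held when each of the 9 libraries was left out in turn, with adjusted p up to 0.00536 in BXD and 0.00582 in model against control, and under every scaling and tool tried. BXD against model was 0.34 (SE 0.14, adjusted p = 0.213), with an unadjusted p of 0.0375.

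Between the receptors and NF-kB stand adaptors and kinases. Of 20 tested, 10 rose and 2 fell in BXD against control, and 11 rose and 5 fell in model against control, shares of 60% beside 30.3% of all genes for BXD and 80% beside 42.2% for model. Their median log2 fold change was 0.29 in BXD and 0.50 in model. Library size alone as the scaling gave 9 rises and 6 falls in BXD, and 10 rises and 8 falls in model. The number that fell in model was 3 without control replicate 2 or 3 or model replicate 2. Irak2, a kinase that sustains signalling after Myd88 assembly, had 98.5, 84.7 and 64.7 CPM in BXD vessels, 116, 135 and 79.2 CPM in model vessels and 22.1, 18.9 and 25.5 CPM in control vessels, and rose 3.73-fold in BXD (adjusted p = 0.000991) and 4.96-fold in model (adjusted p = 0.000358) against control. Tab3, which links TAK1 to ubiquitin chains, had 23.4, 20.9 and 19.2 CPM in BXD vessels, 28.9, 28.6 and 29.9 CPM in model vessels and 12.2, 14.5 and 14.8 CPM in control vessels. It rose 1.53-fold in BXD (adjusted p = 0.00740) and 2.11-fold in model vessels (adjusted p = 0.000622), a call that in BXD was lost with FPKM + 1. The TAK1 gene itself, Map3k7, rose 1.45-fold in BXD (adjusted p = 0.00275) and 1.63-fold in model vessels (adjusted p = 0.000691).

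Some other genes of that list, named here after their values were seen, show the spread within it. Traf6, the ubiquitin ligase that IRAK kinases activate, had 31.4, 15 and 9.51 CPM in BXD vessels, 22.8, 29.4 and 30.4 CPM in model vessels and 5.89, 4.87 and 5.47 CPM in control vessels. It rose 3.44-fold in BXD (adjusted p = 0.00895) and 5.08-fold in model vessels (adjusted p = 0.00213), and without BXD replicate 1 its BXD log2 fold change was 1.18 (adjusted p = 0.00692) in place of 1.78. Irak3, an inhibitory pseudokinase, and Tollip, which restrains IRAK1, are on the same list. Irak3 rose 1.53-fold in BXD (adjusted p = 0.00496) and 1.57-fold in model vessels (adjusted p = 0.00274) and Tollip rose 1.67-fold in BXD (adjusted p = 0.00378) and 1.62-fold in model vessels (adjusted p = 0.00352). Of the MyD88-independent branch, Ticam1, which encodes TRIF, had 3.76, 7.92 and 8.61 CPM in BXD vessels, 6.04, 4.39 and 4.33 CPM in model vessels and 13.3, 10.3 and 12.5 CPM in control vessels, and its bridging adaptor Ticam2 had 0.668, 1.10 and 0.679 CPM in BXD vessels, 0.613, 0.538 and 1.14 CPM in model vessels and 2.48, 4.03 and 2.80 CPM in control vessels. In model against control Ticam1 fell by 1.29 (adjusted p = 0.00972) and Ticam2 by 2.00 (adjusted p = 0.00458). In BXD against control Ticam2 fell by 1.92 (adjusted p = 0.00718) and Ticam1 was -0.83 (adjusted p = 0.0622). Ticam1 was called lower there with upper quartile scaling, library size alone, FPKM + 1, DESeq2 and limma-voom, with adjusted p between 0.019 with FPKM + 1 and 0.0407 with upper quartile scaling.

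**Figure D3:**
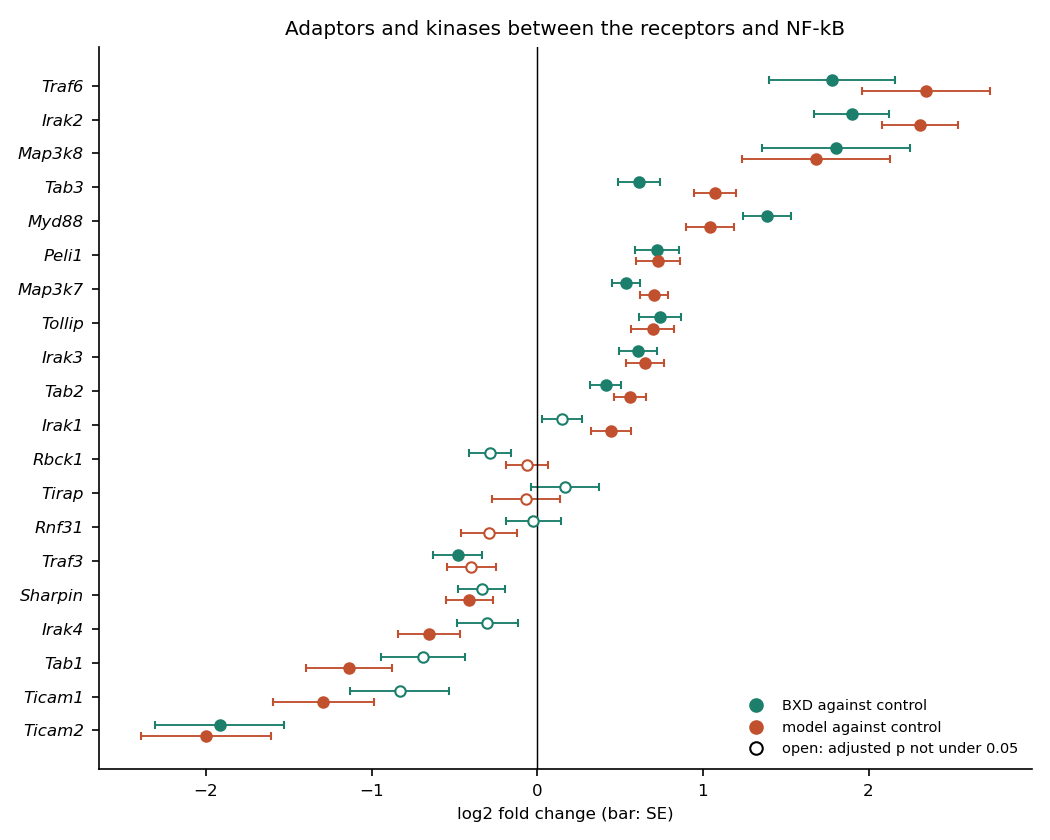
Log2 fold change against control, with SE bars, of the 20 adaptors and kinases in BXD and in model vessels, ordered by the model value. Filled points have an adjusted p under 0.05, and Traf6, Irak2 and Map3k8 lie furthest to the right while Ticam2 lies furthest to the left.

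Nfkb1 encodes p105, the precursor of the p50 subunit of NF-kB, and Nfkbia encodes IkB-alpha. The table places Nfkb1 (gene 81736) at chr2:240773520-240890053 on the plus strand and Nfkbia (gene 25493) at chr6:76267227-76270457 on the minus strand. The RefSeq promoter entry of Nfkb1 on GRCr8 is on the minus strand, a difference that was not resolved here. Nfkb1 had 133, 141 and 124 CPM in BXD vessels, 105, 83.5 and 98.4 CPM in model vessels and 108, 108 and 116 CPM in control vessels. Every BXD library lies above every model and every control library, and every model library lies below every control library. In the deposited TPM the BXD range of 44.0 to 52.0 overlaps the control range of 46.7 to 50.0, and the model range lies below both. None of its differences was called by edgeR's test: BXD against model was 0.47 (SE 0.11, adjusted p = 0.0997), BXD against control 0.26 (SE 0.11, adjusted p = 0.0944) and model against control -0.21 (SE 0.11, adjusted p = 0.151). The unadjusted p of BXD against model was 0.00179, DESeq2 called it (adjusted p = 0.00245), and the authors' deposited table gives a q-value of 0.0571. For BXD against control DESeq2 gave 0.28 (adjusted p = 0.0402) and the authors' deposited table a q-value of 0.0417, while library size alone gave 0.05 (adjusted p = 0.77). With upper quartile scaling, library size alone or FPKM + 1, Nfkb1 was called lower in model against control, at -0.34 (adjusted p = 0.0365), -0.47 (adjusted p = 0.0154) and -0.46 (adjusted p = 0.0156).

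Nfkbia, whose promoter holds the kB match nearest to a start above, had 514, 316 and 279.7 CPM in BXD vessels, 338, 262 and 251 CPM in model vessels and 189, 150.1 and 194 CPM in control vessels. All BXD and model libraries lie above all control libraries, and BXD replicate 1 is the highest of the 9. In the deposited TPM the model range of 224.7 to 319 overlaps the control range of 196 to 239.9, and BXD lies above control. It rose 2.08-fold in BXD against control (log2 fold change 1.06, SE 0.23, adjusted p = 0.00986) and 1.60-fold in model against control (log2 fold change 0.67, SE 0.23, adjusted p = 0.0417) by edgeR's test. Without BXD replicate 1 the BXD value was 0.75 (adjusted p = 0.0134), and BXD against model was 0.07 (adjusted p = 0.83) in place of 0.38 (adjusted p = 0.369). The model call was lost without any 1 of 7 libraries, all but BXD replicates 1 and 3 (adjusted p up to 0.142), and with FPKM + 1 (0.40, adjusted p = 0.146), library size alone (0.41, adjusted p = 0.145) or upper quartile scaling (0.55, adjusted p = 0.0723).

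**Figure D4:**
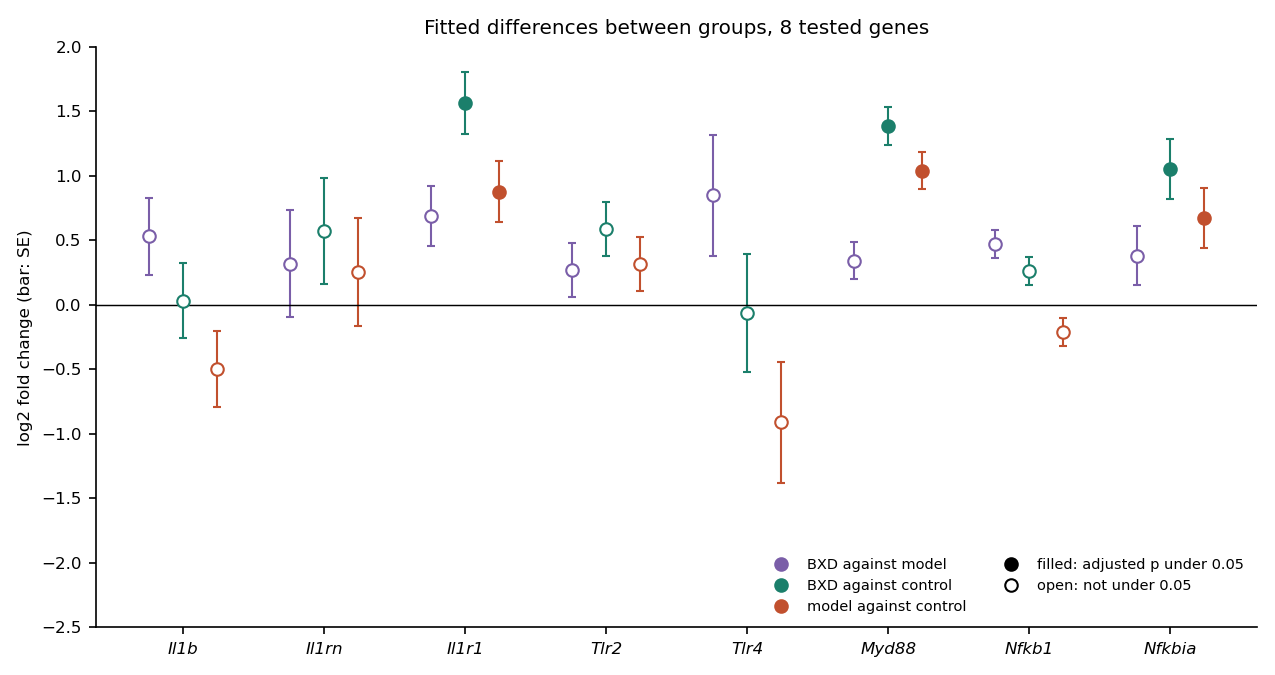
Fitted log2 fold change with SE bars for the 8 tested genes in BXD against model, BXD against control and model against control. Filled points, those with an adjusted p under 0.05, are found for Il1r1, Myd88 and Nfkbia in the comparisons with control and for no gene in BXD against model.

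Among the 17 NF-kB subunits, IkB proteins and IkB kinases, 8 rose and 1 fell in BXD against control and 7 rose and 3 fell in model against control, 52.9% beside 30.3% of all genes for BXD and 58.8% beside 42.2% for model. These counts moved with single libraries. In BXD against control 3 rose and 1 fell without control replicate 1 or 3 or BXD replicate 2, 4 rose without control replicate 2 and 5 without BXD replicate 1. In model against control 3 rose and 1 fell without control replicate 1, 4 and 1 without control replicate 3, 5 and 1 without control replicate 2, 4 and 2 without model replicate 3, and 6 and 1 without model replicate 2 or BXD replicate 2. With library size alone 3 rose and 1 fell in BXD, and 4 rose and 5 fell in model. Chuk, the catalytic subunit IKK-alpha, had 74.6, 88.8 and 84.2 CPM in BXD vessels, 78.7, 106 and 81.8 CPM in model vessels and 47.4, 42.2 and 43.9 CPM in control vessels, and rose 1.85-fold in BXD (adjusted p = 0.00194) and 1.99-fold in model vessels (adjusted p = 0.000913). Bcl3, a nuclear IkB protein that binds p50 dimers, had 73.4, 69.7 and 42.6 CPM in BXD vessels, 45.6, 30.7 and 46 CPM in model vessels and 18.7, 23.4 and 20.0 CPM in control vessels, and rose 2.98-fold in BXD (adjusted p = 0.00190) and 1.97-fold in model vessels (adjusted p = 0.00969). The model call of Bcl3 was lost with FPKM + 1 (log2 fold change 0.62). Ikbke, a kinase of the interferon branch, had 23, 16 and 14.6 CPM in BXD vessels, 20.9, 17.9 and 28.5 CPM in model vessels and 39.6, 39 and 45.7 CPM in control vessels and fell by 1.22 in BXD (adjusted p = 0.00394) and by 0.88 in model vessels (adjusted p = 0.0104) on the log2 scale. Rela, the p65 partner of p50, had 154, 125 and 100.1 CPM in BXD vessels, 123, 92.7 and 108 CPM in model vessels and 91.2, 81.1 and 103 CPM in control vessels. Its log2 fold change was 0.46 (adjusted p = 0.0720) in BXD (called by DESeq2, adjusted p = 0.037) and 0.23 (adjusted p = 0.301) in model against control, and the model value turned to -0.04 at the lowest with library size alone or FPKM + 1. With library size alone the median of the whole list in model against control was -0.03 in place of 0.23.

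Feedback inhibitors gave 3 rises and 0 falls of 13 tested in BXD against control, and 4 rises and 0 falls in model against control, 23.1% beside 30.3% of all genes for BXD and 30.8% beside 42.2% for model. There were 6 rises in BXD without BXD replicate 3 and 2 without any 1 control library, and in model 2 rises without any 1 control library or model replicate 3. With library size alone model had 2 rises and 1 fall. Otulin, which trims linear ubiquitin chains, had 83.1, 115 and 127 CPM in BXD vessels, 111, 189 and 113 CPM in model vessels and 37.5, 43.4 and 48.2 CPM in control vessels, and rose 2.52-fold in BXD (adjusted p = 0.00405) and 3.20-fold in model vessels (adjusted p = 0.00120). Socs3, an inhibitor of cytokine receptor signalling through STAT3, had 349, 118 and 52.5 CPM in BXD vessels, 104, 50.3 and 70.6 CPM in model vessels and 17.9, 13.3 and 22.9 CPM in control vessels. It rose in BXD by 3.26 (adjusted p = 0.00632) and in model by 2.06 (adjusted p = 0.0257) on the log2 scale, the model call being lost without any 1 of 5 libraries, the 3 control libraries and model replicates 1 and 3 (adjusted p up to 0.0856). Without BXD replicate 1 the BXD value was 2.24 (adjusted p = 0.00589). Tnip1, a partner of the deubiquitinase A20, had 113, 103 and 110.1 CPM in BXD vessels, 123, 172 and 149 CPM in model vessels and 94.6, 105 and 102 CPM in control vessels. It rose in model by 0.56 (adjusted p = 0.00829), a call lost with library size alone and FPKM + 1, and BXD against control was 0.11 (adjusted p = 0.527). The A20 gene, Tnfaip3, had 167, 44.6 and 33.3 CPM in BXD vessels, 47.6, 46.3 and 81.6 CPM in model vessels and 29.8, 36 and 31.9 CPM in control vessels, with BXD replicate 1 far above all others, and log2 fold changes against control of 1.32 (adjusted p = 0.0943) in BXD and 0.85 (adjusted p = 0.233) in model. It was called in BXD by DESeq2 (1.35, adjusted p = 0.0255) and in model when model and control libraries were fitted alone (0.83, adjusted p = 0.0262).

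The 23 tested inflammatory targets of NF-kB were split, with 6 rises and 3 falls in BXD and 3 rises and 4 falls in model against control, and median log2 fold changes of 0.60 in BXD and -0.23 in model. The shares called, 39.1% and 30.4%, lie beside 30.3% of all genes for BXD and 42.2% for model. The rises in BXD were 3 without control replicate 1 and with limma-voom, 2 without control replicate 3 and 4 without control replicate 2 or BXD replicate 1. In model the median turned to 0.09 without control replicate 2 (2 rises, 2 falls) and 0.06 without model replicate 2 (3 rises, 2 falls), and there were 7 falls without BXD replicate 1. Sod2, the mitochondrial superoxide dismutase, had 661, 480.5 and 393 CPM in BXD vessels, 401, 581 and 404 CPM in model vessels and 181, 178 and 139 CPM in control vessels, and rose 3.08-fold in BXD (adjusted p = 0.00154) and 2.78-fold in model vessels (adjusted p = 0.00152). Csf3, the granulocyte colony-stimulating factor gene, had 5.26, 2.43 and 1.66 CPM in BXD vessels, 2.28, 2.15 and 0.835 CPM in model vessels and 0.142, 0.195 and 0 CPM in control vessels, so control lies at or under the floor of 3 counts per library. Ccl5, a T cell chemokine, had 2.17, 0.392 and 1.36 CPM in BXD vessels, 1.93, 3.23 and 5.32 CPM in model vessels and 8.16, 27.5 and 19.1 CPM in control vessels, and fell by 3.80 in BXD (adjusted p = 0.00335) and by 2.38 in model vessels (adjusted p = 0.0115) on the log2 scale. Named after their values were seen, the chemokine Cxcl1 had 174, 31.9 and 4.53 CPM in BXD vessels, 9.46, 5.11 and 4.63 CPM in model vessels and 3.76, 1.69 and 1.61 CPM in control vessels, and Il6 had 26.4, 3.77 and 1.21 CPM in BXD vessels, 1.31, 1.25 and 1.22 CPM in model vessels and 0.710, 1.43 and 0.911 CPM in control vessels. In BXD against control both were called higher, with a log2 fold change of 4.89 (adjusted p = 0.0158) for Cxcl1 and 3.34 (adjusted p = 0.0284) for Il6, and BXD replicate 1 is the highest library for both. Without that library Cxcl1 was 2.95 (adjusted p = 0.0211) and Il6 1.28 (adjusted p = 0.0929). The Cxcl1 call was lost without control replicate 2 or 3 (adjusted p up to 0.0638) and the Il6 call also without any 1 of the 3 control libraries (up to 0.0944). With limma-voom both calls were lost. The Il6 call was lost as well with FPKM + 1, with BXD and control libraries fitted alone and with a replicate block. Ptgs2, the inducible cyclooxygenase, also named with its values known, fell by 1.62 in BXD (adjusted p = 0.0154) and by 2.21 in model vessels (adjusted p = 0.00354), with 7.35, 4 and 3.40 CPM in BXD vessels, 4.47, 2.15 and 3.11 CPM in model vessels and 20.2, 9.09 and 15.9 CPM in control vessels. The BXD call of Ptgs2 was lost without control replicate 1 or BXD replicate 2 (adjusted p up to 0.0574).

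On the TNF side, 13 ligands, shedding enzymes and receptors were tested, of which 5 rose and 1 fell in BXD and 3 rose and 2 fell in model against control, 46.2% beside 30.3% of all genes for BXD and 38.5% beside 42.2% for model. Scaled by library size alone, 4 rose and 4 fell in BXD, and 2 rose and 4 fell in model. Tnfrsf1a, the broadly expressed receptor with a death domain, had 227, 287 and 247 CPM in BXD vessels, 168, 132 and 142 CPM in model vessels and 133, 127 and 133 CPM in control vessels. Every BXD library lies above every other. It rose 1.93-fold in BXD against control (adjusted p = 0.00128), was 0.17 (adjusted p = 0.298) in model against control, a value that turned to -0.10 at the lowest with library size alone or FPKM + 1, and 0.78 (adjusted p = 0.0717) in BXD against model, which DESeq2 called (adjusted p = 9.29e-07). Tnfsf10, which encodes TRAIL, had 25.1, 14.6 and 16.2 CPM in BXD vessels, 15.1, 17.7 and 22.2 CPM in model vessels and 73.7, 91.8 and 74.4 CPM in control vessels, and fell by 2.10 in BXD (adjusted p = 0.000747) and by 2.12 in model vessels (adjusted p = 0.000423) on the log2 scale. Timp3, an inhibitor of the sheddase that releases TNF, rose 1.97-fold in BXD (adjusted p = 0.00118) and 1.82-fold in model vessels (adjusted p = 0.00124). Tnfrsf1b, the second TNF receptor, named after its values were seen, had 97.4, 65.6 and 53 CPM in BXD vessels, 66, 76.1 and 73.1 CPM in model vessels and 22.4, 26 and 28 CPM in control vessels and rose 2.83-fold in BXD (adjusted p = 0.00154) and 2.82-fold in model vessels (adjusted p = 0.00110).

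Within the TNF receptor complex, 3 of 12 rose and 4 fell in BXD, and 2 rose and 5 fell in model against control, 58.3% in each beside 30.3% of all genes for BXD and 42.2% for model. When library size alone was the scaling, 2 rose and 4 fell in BXD, and 0 rose and 6 fell in model. Traf5, an adaptor of several receptors of the family, had 4.26, 6.59 and 6.72 CPM in BXD vessels, 4.20, 2.06 and 2.81 CPM in model vessels and 13.1, 15.5 and 15.8 CPM in control vessels, and fell by 1.34 in BXD (adjusted p = 0.00713) and by 2.29 in model vessels (adjusted p = 0.000743). Tradd, the first adaptor to dock on Tnfrsf1a, had 10.4, 11.1 and 13.4 CPM in BXD vessels, 13.8, 15.6 and 14.1 CPM in model vessels and 21.4, 24 and 25.5 CPM in control vessels, and fell by 1.03 in BXD (adjusted p = 0.00152) and by 0.70 in model vessels (adjusted p = 0.00478). Birc2, the ubiquitin ligase cIAP1, rose 1.46-fold in BXD (adjusted p = 0.00240) and 1.40-fold in model vessels (adjusted p = 0.00282), the model call being lost with library size alone and FPKM + 1. Of 10 genes of the inflammasome and IL-1 processing, 1 rose and 4 fell in each of the comparisons with control, 50.0% beside 30.3% of all genes for BXD and 42.2% for model. The number that fell was 2 in BXD without control replicate 2 or 3 or BXD replicate 2 or 3, and 2 in model without control replicate 3 or model replicate 2. P2rx7, the ATP-gated channel upstream of the NLRP3 inflammasome, had 11.9, 8.79 and 8.53 CPM in BXD vessels, 8.32, 7.89 and 11.5 CPM in model vessels and 30.2, 22.9 and 24.5 CPM in control vessels and fell by 1.41 in BXD (adjusted p = 0.00173) and by 1.48 in model vessels (adjusted p = 0.00106). Gsdmd, the pore-forming effector, fell by 0.65 in BXD (adjusted p = 0.0116) and by 0.55 in model vessels (adjusted p = 0.0168), the model call being lost without control replicate 3 or model replicate 2 (up to 0.0632). Txnip, which binds thioredoxin and NLRP3, was the one gene of this list that rose 1.67-fold in BXD (adjusted p = 0.00328) and 1.75-fold in model vessels (adjusted p = 0.00162).

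**Figure D5:**
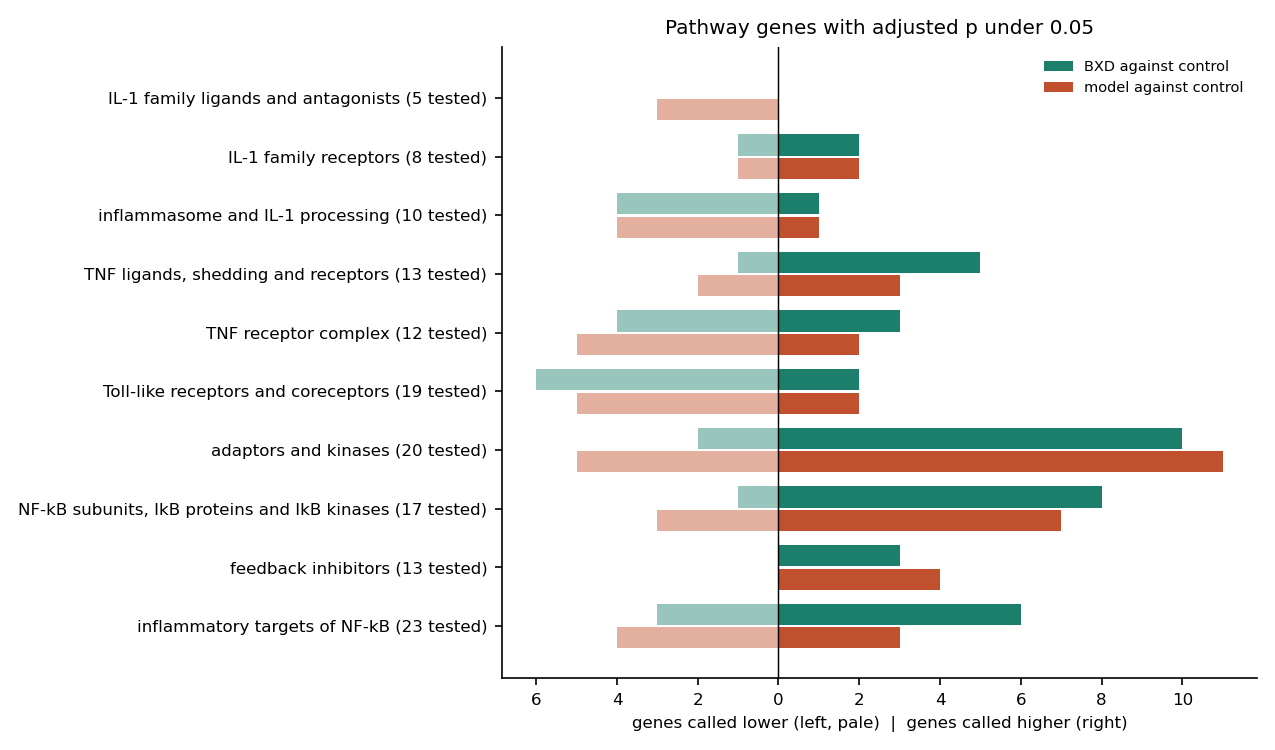
Number of genes called higher (right) and lower (left, pale) against control in each of the 10 pathway lists, for BXD and for model vessels. Adaptors and kinases have the longest bars to the right, at 10 genes in BXD and 11 in model.

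Over the 10 lists together, 157 genes with 140 tested, 40 rose and 22 fell in BXD against control (44.3%, beside 30.3% of all genes), and 35 rose and 32 fell in model against control (47.9%, beside 42.2%). With 1 library left out, 27 to 44 rose and 14 to 25 fell in BXD against control, with 29 and 14 without control replicate 2, and 24 to 36 rose and 20 to 36 fell in model against control, with 34 and 20 without model replicate 2. The split depended on scaling: with library size alone it was 31 to 34 in BXD and 24 to 50 in model, with upper quartile scaling 33 to 29 in BXD and 30 to 39 in model, and with FPKM + 1 28 to 35 in BXD and 21 to 50 in model, higher before lower. These settings moved the median of all genes to between -0.14 and -0.23 in BXD and between -0.14 and -0.28 in model against control. BXD and model differed in 0 of the 140 by edgeR's test, with 25 higher and 5 lower in BXD at an unadjusted p under 0.05, beside 11.0% and 9.85% of all genes. DESeq2 called 13 of the 140, 11 higher and 2 lower in BXD, beside 7.71% of all genes, and limma-voom 0. The comparisons of BXD and of model with control share the same control libraries.

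Compared per length, in TPM, the 10 genes keep much the same order in all groups. Nfkbia leads, at 380.2 ± 128 TPM in BXD, 263 ± 49.8 TPM in model and 223 ± 23.7 TPM in control vessels (SD, n = 3 each). In BXD it is followed by Il1r1 (95.4 ± 24.3) and Myd88 (67.6 ± 11.6), whose ranges overlap, and then Nfkb1 (47.9 ± 3.99). In model the same order holds, with Il1r1 (53.1 ± 18.2) and Myd88 (47.8 ± 3.47) overlapping and Nfkb1 (31.1 ± 5.31) below them. In control vessels Nfkb1 (48.7 ± 1.79) stands above Il1r1 (39 ± 3.45) and Il1r1 above Myd88 (32 ± 4.57), without overlap. The rest follow at under 10 TPM: Tlr2, Il1b, Tlr4 and Il1rn overlap with their neighbours in BXD, Tlr4, Il1rn and Tnf in model, and Il1b, Tlr2 and Tlr4 in control vessels. Il1a is last everywhere, at 0.04 to 0.06 TPM on average, and its range in TPM overlaps that of Tnf in control vessels only. In BXD and in model the lowest Tnf library and the highest Il1a libraries each held 1 count, so the counts do overlap there.

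Over all 9 libraries, the genes whose mean-centred log2 CPM lay closest to each tested gene were found among 12961 candidates, by the root mean square of the differences. For Nfkb1 they were Pkig at 0.0674 and Arhgef7 at 0.0764, for Nfkbia Mafk at 0.0779 and Lrrc32 at 0.110, and for Myd88 Aff1 at 0.117 and Gclc at 0.128. For Il1r1 they were Tead4 at 0.145 and Atg9b at 0.149, for Tlr2 Zmym5 at 0.127 and Fam65c at 0.136, and for Tlr4 Zfp623 at 0.131 and Mis12 at 0.167. Il1rn lay nearest to Dsc2 at 0.135 and Clcf1 at 0.170, and Il1b nearest to Slc6a6 at 0.204 and Clec2g at 0.205. No other gene of the 10 was among these.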

How the data were processed

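Each of 9 samples was sequenced as poly(A) RNA on the Illumina platform named in the labels' protocols. Bowtie2 2.2.5, HISAT2 2.2.4 and the build Rnor_6.0 appear in the submitters' processing notes. What estimated the counts was not given in the sources used here. No stranded kit is stated, so reads of overlapping or antisense genes could not be separated. For the model group, saline (labels) and distilled water (treatment protocol) are both given as the gavage. Omeprazole-treated rats of the protocol were not analysed here.

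Estimated counts, FPKM and TPM per library were deposited by the authors for 18964 genes, per the file headers, and 88.8% of the deposited estimated counts were whole within 1e-09. FPKM values, deposited by the authors as fragments per length and depth, entered 1 set of alternatives. TPM values, also deposited by the authors, gave levels and ratios. The authors' p-values and q-values were made with DESeq2, per the file headers, which name no tool for the authors' log2 fold changes. Another 45 columns of per-sample values were not used.

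Rounded estimated counts were filtered with filterByExpr to 14643 genes. A quasi-likelihood model with the group as its only term (edgeR 4.0.16, R 4.3.3, TMM factors 0.873 to 1.15) was fitted to all 9 libraries together, with 6 residual degrees of freedom and a biological coefficient of variation of 23.3%. The factors were 1.09 to 1.15 in control libraries and 0.873 to 0.985 in model and BXD libraries, so CPM comparisons with control depend on this scaling. With library size alone the all-gene median log2 fold change in model against control was -0.28 in place of -0.01. P-values were adjusted over all genes. Ratios are log2 of TPM + 0.01. Floors cover counting error only. Replicates differed beyond sampling noise (chi-square per degree of freedom 13.9 to 51.3). The fit was tested on simulated data in which few genes changed, in either direction, so that test could not probe the scaling between groups.

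The genes, the 10 pathway lists and the 9 marker lists were chosen with earlier results of these data known. From each pathway list the text names the 3 called genes with the smallest p in model or BXD against control. Other names are said to be chosen after their values were seen, or are partners of a named gene (Il1rap, Ly96, Map3k7, Rela and Tnfaip3), chosen in the same way. For each tested gene the 2 genes of most similar profile, with a mean of at least 1 CPM, are named. Alternatives were other scalings, filters and tools (DESeq2 1.42.0, limma 3.58.1), FPKM with a pseudocount of 1 or 0.1, each pair of groups alone, a replicate block and leaving out each library. Promoters are from RefSeq on GRCr8, whose coordinates differ from those of Rnor_6.0.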

Additional observations from a re-analysis of the deposited data

How the results depend on the processing

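Fold changes of the 8 tested genes were compared under settings that left out no single library, among them each pair of groups alone. Of these, 242 kept their direction and side of the threshold, 10 passed it, 7 dropped under it and 5 changed sign, and with a library left out 198, 4, 9 and 5. The sign changes, at values near 0, were Il1b in BXD against control, 0.03 as reported and -0.18 with library size alone, -0.089 with upper quartile scaling, -0.15 with FPKM + 1 and -0.19 with FPKM + 0.1, and Il1rn in model against control, -0.0087 with library size alone. In BXD against control DESeq2 called 5 of the 8, beside 35.5% of all genes. In BXD against model it called 1 of the 8 and 13 pathway genes, beside 7.71% of all genes, 1129 against 9 by edgeR. The cause was not tested. With 1 library left out, 1 to 4 of the 8 were called in model against control, beside 29.1% to 46.3% of all genes. In BXD against control it was 3 to 5, beside 18.4% to 32%. In BXD against model 0 to 1 pathway genes were called, beside 0.00669% to 1.03%. The ranges that crossed 0 were -0.066 to 0.47 for the Il1r2 to Il1r1 ratio and -0.62 to 0.011 for Il1rn to Il1b in BXD against model, -0.19 to 0.17 for Il1b in BXD against control, -0.052 to 0.63 for Il1rn in BXD against model, -0.055 to 0.53 for Il1rn in model against control, and -0.57 to 0.36 for Tlr4 in BXD against control. Replicate numbers do not pair the samples: correlations of deviations ran from -0.431 to 0.0859, and 1 of 18 sample and group pairs was best with its own number. With the replicate block 3, 0 and 3 of the 8 were called for model over control, BXD over model and BXD over control. The pathway genes called were 61, 0 and 54, and the shares of all genes 36.6%, 0.00683% and 25%. The p of the Il1rn to Il1b ratio was 0.5 in each comparison by an exact sign-flip test. That test pairs by replicate number and has few sign patterns with 3 libraries per group, so it cannot decide whether the ratio differed. Il1a, Tnf, Il1b and Il1rn are limited by depth.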
